A study of Bos taurus with 31 samples.

Results

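The integrated stress response genes ATF4, ATF5, ASNS, CHAC1, SESN2, TRIB3, DDIT3, PPP1R15A, FGF21 and VLDLR were followed in the liver of 31 lactating German Holstein cows. They are 10 of 24616 genes in the deposited count table, and all 10 were among the 15916 genes that had at least 20 reads summed over the cows. The cows were fed a ration contaminated with residues of the herbicide glyphosate (GLY) or a control ration (CON), each with a high (HC) or low (LC) concentrate feed proportion (CFP). This gave 8 cows in CONHC, 8 in CONLC, 8 in GLYHC and 7 in GLYLC. All groups were given a mixed ration of maize silage, grass silage, straw and concentrate, and the control ration was not free of traces of glyphosate. The cows' ages are not among the labels. Liver was taken by puncture biopsy at several times in the study. Here 1 mRNA library per cow was analysed, and none from before the feeding.

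The genes were chosen by name with results of these data known. ATF5 was chosen by its difference between CONHC and CONLC, for which the study lists it. For all 10 genes, the values in that comparison and in HC versus LC adjusted for treatment are therefore given as a description without p-values.

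ATF4 is a transcription factor whose translation goes up when kinases phosphorylate the initiation factor eIF2, which happens under amino acid shortage, endoplasmic reticulum (ER) stress and other insults. It induces genes of amino acid synthesis, amino acid uptake and tRNA charging, and also its own brakes. ATF5 is a related factor that is translated in a similar way and is linked to the mitochondrial stress response. In liver, the same response can raise the hormone FGF21, which is otherwise known for its induction during negative energy balance in dairy cows. Because ATF4 and ATF5 are controlled largely in translation, mRNA levels show only a part of their regulation.

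The libraries held from 11675775 to 36675542 counted reads. Levels are given in CPM, the reads of a gene relative to the library total, scaled by edgeR's TMM factors, and they are compared between cows but not between genes. The summed level of 8 hepatocyte markers, among them ALB, was between 118272 and 204692 CPM in 30 cows. It was 90026 CPM in GLYLC cow 912. The library of this cow also carried 5 of 5 intestinal epithelium markers at a summed level of 319 CPM, against 0.485 to 2.05 CPM in the other cows. FABP2, a fatty acid binding protein of enterocytes, had 206 CPM there and at most 0.163 CPM elsewhere. The skeletal muscle genes MB, CKM, MYH7, MYL2, ACTA1, TNNC1, TNNT1, TTN and NEB, a list made after the values were seen, summed to between 2260 and 5323 CPM in CONHC cow 123, CONLC cows 103 and 166 and GLYHC cow 127, and to at most 634 CPM in the other 27 cows. Results are therefore also given without cow 912 and, for VLDLR and CONHC versus CONLC in some other genes, without those 4 cows. In bulk tissue, fewer cells of a type and less RNA per cell cannot be told apart.

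ATF4 (ENSBTAG00000017462) had 131, 152 and 214 CPM (lowest, median and highest cow) in CONHC and 149, 175 and 265 CPM in CONLC. Under GLY it had 130, 148 and 168 CPM in GLYHC and 136, 184 and 478 CPM in GLYLC. The groups overlapped, although 4 of 8 CONHC cows were below every CONLC cow and all 8 GLYHC cows were below the GLYLC median. The highest value, 478 CPM, belonged to cow 912, and the other 6 GLYLC cows reached 192 CPM. The log2 fold change was -0.26 ± 0.18 (SE) for CONHC versus CONLC. In GLYHC versus GLYLC it was -0.52 ± 0.18, which did not pass the test (edgeR quasi-likelihood test, Benjamini-Hochberg adjusted p = 0.242). Without cow 912 it was -0.19 ± 0.12 (adjusted p = 0.684).

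ATF5 (ENSBTAG00000003457) followed another pattern. Its levels were 86.6, 113 and 159 CPM in CONHC and 133, 185 and 249 CPM in CONLC. All 8 CONHC cows were below the CONLC median, 6 of them were below every CONLC cow, and 5 CONLC cows were above every CONHC cow. The log2 fold change was -0.66 ± 0.22 in the edgeR fit, for the comparison by which ATF5 was chosen. By qRT-PCR, the study also found ATF5 lower in CONHC than in CONLC, but the difference was not significant. In GLYHC the levels were 116, 138 and 257 CPM, and in GLYLC they were 56.8, 159 and 230 CPM. GLYLC cows were spread widely, with a coefficient of variation of 46.1%, and 3 of 7, cow 912 among them, were below every CONLC cow. For GLYHC versus GLYLC, with cows that did not serve to choose the gene, the log2 fold change was 0.10 ± 0.23 (edgeR, adjusted p = 0.909). For GLYHC versus CONHC it was 0.44 ± 0.22, and the difference between both CFP contrasts was 0.76 ± 0.31 on the log2 scale. Both of these values hold the CONHC cows by which ATF5 was chosen and are a description.

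DDIT3 (ENSBTAG00000031544) encodes CHOP, a transcription factor downstream of ATF4 that promotes cell death under lasting ER stress. It had 5.90, 8.79 and 10.3 CPM in CONHC, 7.74, 10.4 and 12.3 CPM in CONLC and 7.15, 9.44 and 11.1 CPM in GLYHC. In GLYLC it had 7.95, 10.005 and 23.0 CPM, and the highest cow was again 912. The groups overlapped in every comparison. Without cow 912, the log2 fold change for GLYHC versus GLYLC was -0.07 ± 0.12 (edgeR, adjusted p = 0.917), against -0.32 ± 0.17 (adjusted p = 0.421) with it.

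**Figure D1:**
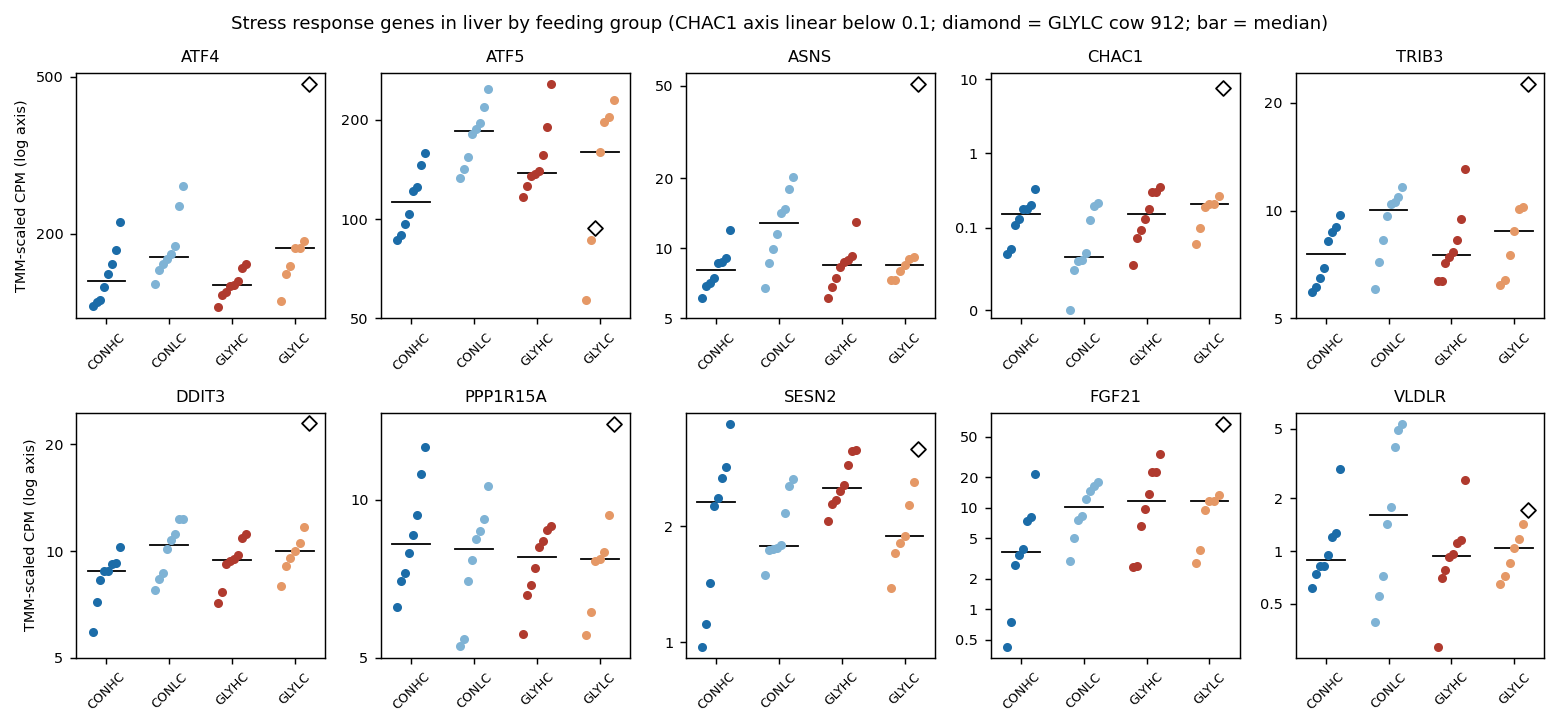
TMM-scaled CPM (log axis, linear below 0.1 CPM for CHAC1) of the 10 stress response genes in each cow by feeding group. Points are cows, bars are group medians over 8, 8, 8 and 7 cows, and the open diamond is GLYLC cow 912, which is the highest of all 31 cows for 7 of the 10 genes but not for ATF5, SESN2 or VLDLR.

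ASNS (ENSBTAG00000003222) encodes asparagine synthetase, a much used readout of ATF4 activity. It had 6.10, 8.04 and 11.99 CPM in CONHC and 6.75, 12.9 and 20.4 CPM in CONLC. All 8 CONHC cows were below the CONLC median, and CONLC cows 103, 166, 259 and 260 were above every CONHC cow. The log2 fold change was -0.65 ± 0.32. GLYHC had 6.14, 8.49 and 13.0 CPM, and GLYLC had 7.31, 8.46 and 51.0 CPM. In GLYLC, the value of 51.0 CPM was that of cow 912, and the other 6 cows lay closely together between 7.31 and 9.19 CPM. In GLYHC versus GLYLC it was -0.75 ± 0.33 (edgeR, adjusted p = 0.345), and without cow 912 it was 0.06 ± 0.19 (adjusted p = 0.963). For GLYLC versus CONLC the fold change turned from 0.14 ± 0.33 (adjusted p = 1) to -0.66 ± 0.19 (adjusted p = 1) without this cow. ASNS in HC versus LC adjusted for treatment was -0.70 ± 0.23, and -0.33 ± 0.14 without cow 912.

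CHAC1 (ENSBTAG00000010371), a glutathione-degrading enzyme that is induced through ATF4, was close to the limit of detection. It had between 0 and 8 reads in each of 30 cows and 97 reads in all of them together. Cow 912 alone had 205 reads, or 7.49 CPM, against at most 0.357 CPM elsewhere. The fitted log2 fold changes of CHAC1 rested on this cow. They were -2.68 ± 0.74 for GLYHC versus GLYLC (edgeR, adjusted p = 0.136) and 3.50 ± 0.79 for GLYLC versus CONLC (adjusted p = 0.139). Without the cow they were 0.10 ± 0.43 (adjusted p = 0.972) and 0.72 ± 0.46 (adjusted p = 1).

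SESN2 (ENSBTAG00000002363), a sestrin that restrains mTORC1 signalling when leucine is short, was low in all groups. Its levels were 0.975, 2.32 and 3.70 CPM in CONHC, 1.496, 1.77 and 2.66 CPM in CONLC, 2.07, 2.52 and 3.16 CPM in GLYHC and 1.39, 1.88 and 3.18 CPM in GLYLC. Its direction between HC and LC was opposite to that of ATF4. The log2 fold change was 0.13 ± 0.21 for CONHC versus CONLC and 0.30 ± 0.22 for GLYHC versus GLYLC (edgeR, adjusted p = 0.609). Leaving out CONHC cow 133, the highest of its group, gave -0.03 in the first of these.

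TRIB3 and PPP1R15A act as brakes. TRIB3 (ENSBTAG00000017007) is a pseudokinase that binds ATF4 and AKT, and PPP1R15A (ENSBTAG00000001294), also named GADD34, directs a phosphatase to eIF2. TRIB3 had 5.91, 7.58 and 9.70 CPM in CONHC, 6.04, 10.04 and 11.6 CPM in CONLC, 6.36, 7.53 and 13.1 CPM in GLYHC and 6.22, 8.75 and 22.6 CPM in GLYLC. Its log2 fold change was -0.29 ± 0.21 for CONHC versus CONLC. In GLYHC versus GLYLC it was -0.32 ± 0.21 (edgeR, adjusted p = 0.556), and without cow 912 it was -0.0017 ± 0.17 (adjusted p = 0.999). PPP1R15A differed little between group medians, with 6.25, 8.25 and 12.6 CPM in CONHC and 5.27, 8.06 and 10.6 CPM in CONLC. It had 5.55, 7.79 and 8.93 CPM in GLYHC and 5.53, 7.72 and 14.0 CPM in GLYLC. Its log2 fold changes between pairs of groups were from -0.21 to 0.17, with standard errors of 0.17 to 0.18.

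FGF21 (ENSBTAG00000011624) varied widely, with a coefficient of variation of 108% over 31 cows and 78.0% without cow 912. It had 0.430, 3.69 and 21.3 CPM in CONHC and 2.99, 10.3 and 17.9 CPM in CONLC. Under GLY it had 2.58, 11.7 and 33.6 CPM in GLYHC and 2.83, 11.6 and 67.3 CPM in GLYLC, where 67.3 CPM was again cow 912. CONHC was the group with the lowest median, and 7 of its 8 cows were below the CONLC median. The exception was CONHC cow 134 with 21.3 CPM. CONHC versus CONLC had a log2 fold change of -0.83 ± 0.65 with this cow and -1.48 without it. For GLYHC versus CONHC it was 1.24 ± 0.65 (edgeR, adjusted p = 1), and 1.89 without cow 134. For GLYHC versus GLYLC it was -0.29 ± 0.64 (adjusted p = 0.901), and 0.67 ± 0.61 (adjusted p = 0.801) without cow 912.

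VLDLR (ENSBTAG00000018517), a receptor for triglyceride-rich lipoproteins that can be induced through ATF4 in liver, is abundant in muscle and low in healthy liver. It had 0.616, 0.888 and 2.93 CPM in CONHC, 0.394, 1.60 and 5.33 CPM in CONLC, 0.286, 0.942 and 2.55 CPM in GLYHC and 0.651, 1.04 and 1.72 CPM in GLYLC. CONLC was spread over most of this range, and 7 of 8 CONHC cows were below its median. The 4 cows with the most reads of skeletal muscle genes had 2.55 to 4.92 CPM of VLDLR, and the single cow above them, CONLC 260 with 5.33 CPM, was not among these 4. Over 31 cows, log2 CPM of VLDLR and log2 of the muscle sum had r = 0.53 and Spearman's rho = 0.47. The r was 0.38 without the 2 cows farthest from the median muscle sum and 0.13 in the 27 cows without the 4. The log2 fold change for CONHC versus CONLC was -1.04 ± 0.44, and -0.91 ± 0.42 without the 4 cows. For GLYLC versus CONLC it was -1.14 ± 0.46 (edgeR, adjusted p = 0.757), and -0.68 ± 0.41 (adjusted p = 0.910) without them. In GLYHC versus GLYLC the fold change was -0.0014 ± 0.51 (adjusted p = 0.999), and -0.35 ± 0.41 (adjusted p = 0.779) without them.

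**Figure D2:**
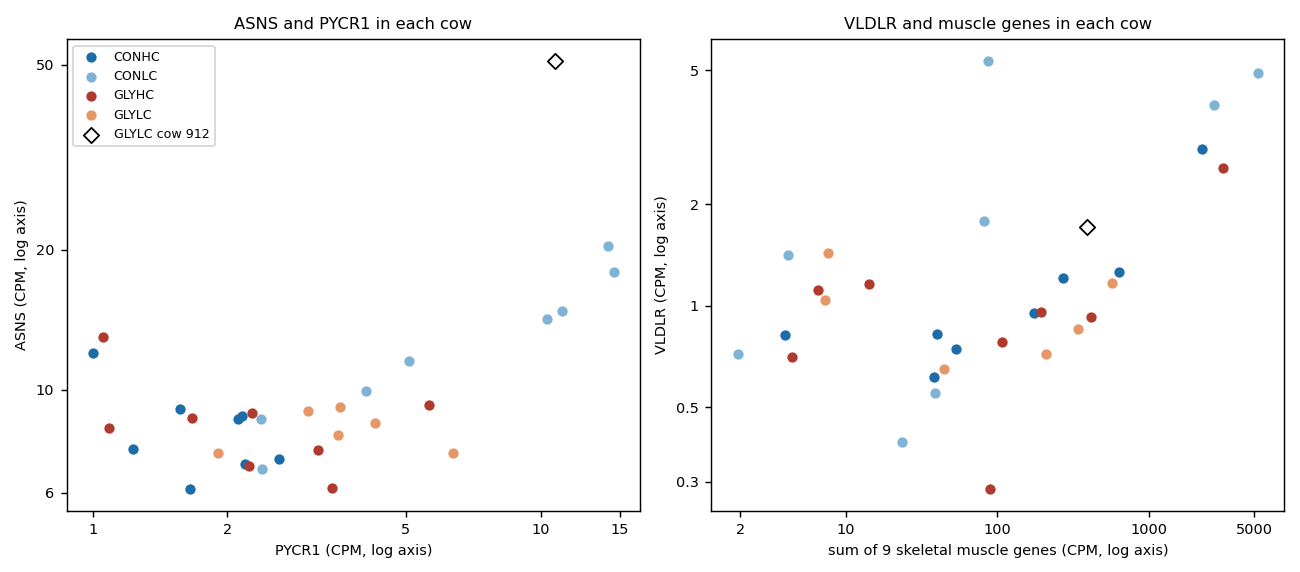
Left, CPM of ASNS against CPM of PYCR1, and right, CPM of VLDLR against the summed CPM of 9 skeletal muscle genes, all on log axes with 1 point per cow coloured by feeding group. CONLC cows 103, 166, 259 and 260 lie at upper right for ASNS and PYCR1, and the 4 cows with muscle sums of 2260 CPM or more have VLDLR values of 2.55 to 4.92 CPM.

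No gene of the 10 was called in any comparison at an unadjusted p under 0.05 and an adjusted p under 0.1. For CONHC versus CONLC, edgeR called 0 of 15916 genes (0%), with 949 at an unadjusted p under 0.05. Without cow 912, which is in neither group, edgeR called 7 of 15752 genes. DESeq2 called 27 on all cows, 52 on all cows without cow 912 and 81 on the 2 compared groups. The count for this comparison thus depended strongly on the fit. Nothing is read from the calls of the 10 genes in this comparison. Of the 10 genes, 7 were lower and 3 higher in CONHC, with a median log2 fold change of -0.28 against -0.01 over all genes. Without the 4 cows with the most muscle reads, CONLC cows 103 and 166 among them, several of these were nearer to zero. ATF4 was then at -0.12 ± 0.20, DDIT3 at -0.16 ± 0.19 and TRIB3 at -0.19 ± 0.24. ATF5 was at -0.65 ± 0.26, ASNS at -0.56 ± 0.38 and FGF21 at -0.94 ± 0.71. For GLYHC versus GLYLC, 32 genes (0.201%) were called and 0 of the 10, of which ATF4, ASNS and CHAC1 had an unadjusted p under 0.05. Here 8 of the 10 were lower in GLYHC with cow 912 and 3 without it, and the median moved from -0.31 to 0.05. DESeq2 on all cows called 143 genes and none of the 10.

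Treatment comparisons gave no call among the 10 genes either. For GLYHC versus CONHC, 0 genes (0%) were called by edgeR, with 464 at an unadjusted p under 0.05 and none of the 10 among them, and DESeq2 on all cows called 0. For GLYLC versus CONLC, 10 genes (0.0628%) were called, and CHAC1 and VLDLR were the only ones of the 10 with an unadjusted p under 0.05. DESeq2 on all cows called 4 genes and none of the 10. The median over the 10 was 0.14 with cow 912 and -0.17 without it, where 9 of 10 were lower in GLYLC. For GLY versus CON adjusted for CFP, 0 genes (0%) were called by edgeR with 624 at an unadjusted p under 0.05, and DESeq2 called 1 gene outside the list. CHAC1 at 2.02 ± 0.65 and FGF21 at 0.97 ± 0.45 were the genes of the list under that limit, and neither passed after adjustment. Without cow 912 they were at 0.44 ± 0.31 and 0.54 ± 0.44, and 0 of the 10 were under it. For the interaction of GLY with CFP, 0 genes (0%) were called by edgeR with 670 at an unadjusted p under 0.05, and DESeq2 called 1 gene outside the list. CHAC1 was at -3.30 ± 1.17, and at -0.52 ± 0.62 without cow 912.

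HC versus LC adjusted for treatment was the comparison with most calls, at 231 of 15916 genes (1.45%), and it too held none of the 10, from which nothing is read. The lower values in HC were ATF4 (-0.38 ± 0.13), ASNS (-0.70 ± 0.23), DDIT3 (-0.29 ± 0.11), TRIB3 (-0.31 ± 0.15), CHAC1 (-1.39 ± 0.65), ATF5 (-0.29 ± 0.17), FGF21 (-0.56 ± 0.45) and VLDLR (-0.54 ± 0.33), and PPP1R15A (0.02 ± 0.12) and SESN2 (0.21 ± 0.15) were not lower. Without cow 912, the log2 fold changes were -0.22 ± 0.08 for ATF4, -0.17 ± 0.08 for DDIT3, -0.16 ± 0.11 for TRIB3 and 0.35 ± 0.31 for CHAC1. FGF21 was then at -0.14 ± 0.44, ATF5 at -0.35 ± 0.17 and VLDLR at -0.51 ± 0.35. The median over the 10 genes moved from -0.35 to -0.16.

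**Figure D3:**
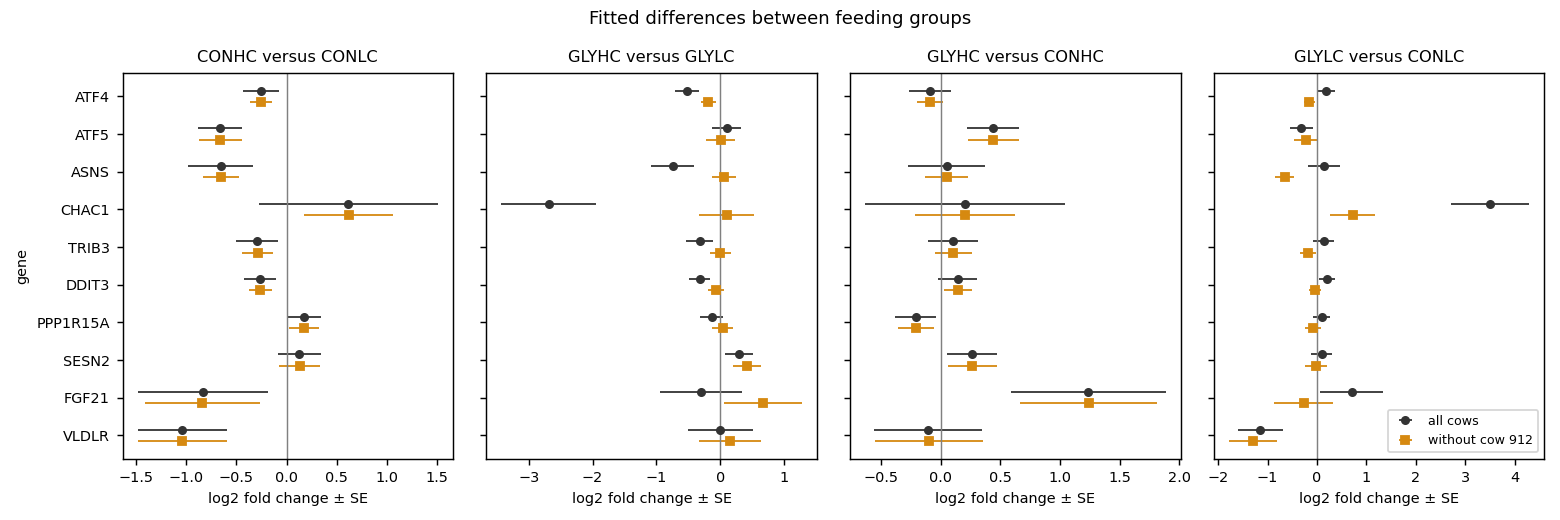
Log2 fold change ± SE of each gene from the edgeR fit in 4 comparisons of feeding groups, with all 31 cows (circles) and without GLYLC cow 912 (squares); the x axes differ in range. The fold changes for CONHC versus CONLC are alike in both fits, but their SEs are smaller without the cow, such as 0.18 against 0.32 for ASNS. CHAC1, ASNS and FGF21 are among the genes that change side in GLYHC versus GLYLC when the cow is left out.

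In GLYLC cow 912, 7 of the 10 genes were above all other cows. Over all 15916 genes the cow was the highest for 2391 and the lowest for 1840 (11.6%). Each of the other 30 cows was the highest for 163 to 1131 genes. Against the median of the other cows, FGF21 was 8.14-fold, ASNS 5.89-fold, ATF4 2.93-fold, TRIB3 2.74-fold, DDIT3 2.47-fold and PPP1R15A 1.79-fold higher. ATF5, at 94.2 CPM, was 1.53-fold lower and ranked 27 of 31.

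Some other branches of the stress response were raised in this cow, in unequal measure. Of 13 ATF4 targets that charge or export tRNA (aminoacyl-tRNA synthetases and XPOT), 11 were above all other cows, with CARS 3.84-fold and TARS 3.41-fold over their median. Of 8 amino acid transporters, 7 were, and SLC7A5, the large neutral amino acid transporter, was 15.4-fold over the median. ER chaperones of the ATF6 and XBP1 arms were above all other cows for 10 of 14 genes, such as CRELD2 (9.42-fold), MANF (7.87-fold) and HSPA5 (6.49-fold), the main chaperone of the ER lumen. XBP1 itself was 6.99-fold over the median, but only 3 of 9 bZIP factors were above all other cows (median of the list 1.08-fold). Of 12 other ATF4 and CHOP targets, 3 were (median of the list 1.11-fold). Among 9 mitochondrial chaperones and proteases, 0 were above all other cows, and CLPX was below them.

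Not all ATF4 targets were high. Of 12 amino acid synthesis genes, MTHFD2 and CTH were above and PHGDH, PSAT1 and SHMT2 of the serine and glycine pathway were below all other cows, with PSAT1 4.08-fold under the median. Of 13 genes for FGF21 receptors and PPAR alpha targets, 7 were below all other cows. They included KLB, the co-receptor of FGF21 (2.61-fold under the median). The hepatocyte markers ALB, TTR, SERPINA1, TF and AHSG were also below all other cows, ALB 2.49-fold under the median, whereas APOA1 and FGA were above them. The part of the intestinal reads and of the lower hepatocyte markers in the levels of these genes was not tested.

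**Figure D4:**
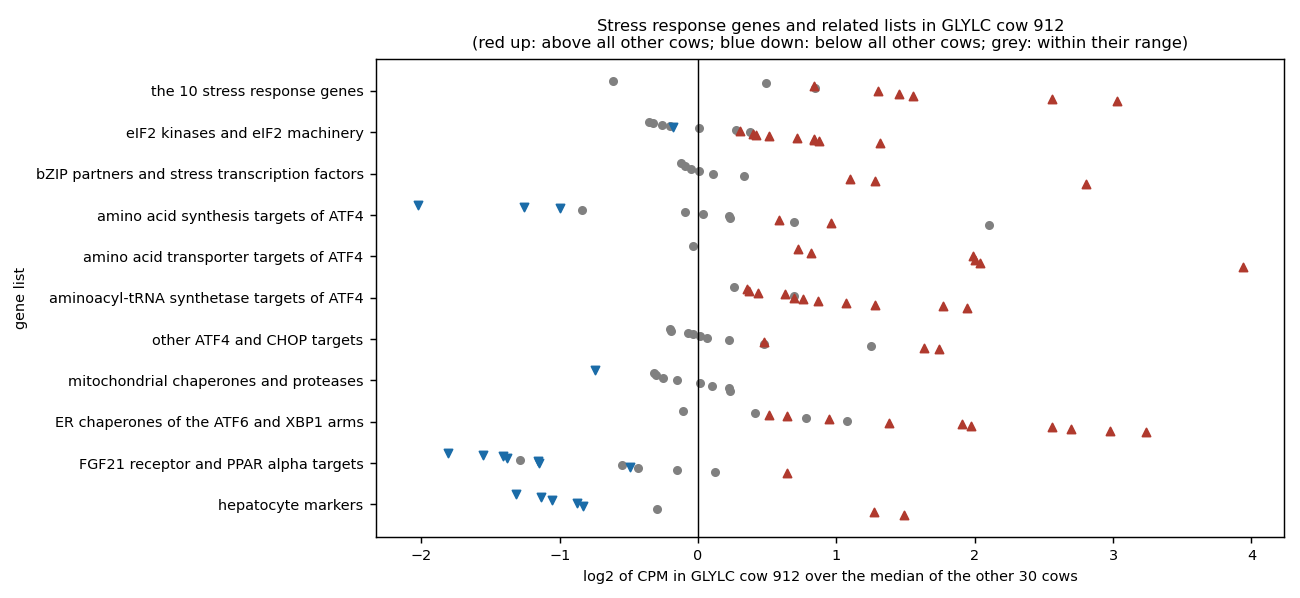
Log2 of the CPM in GLYLC cow 912 over the median of the other 30 cows (x axis) for the 10 genes, related gene lists and hepatocyte markers (y axis), 1 point per gene. Red triangles are above and blue triangles below all other cows. CHAC1 and SLC7A11, which had few or no reads in the other cows, are not drawn.

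Correlations across the cows depended on cow 912 as well. They are given as a description of log2 CPM (prior count 2) in libraries that share groups and this cow. ATF4 had r = 0.77 with DDIT3 (Spearman's rho = 0.50), 0.74 with TRIB3 (0.55), 0.71 with ASNS (0.34), 0.61 with CHAC1 (-0.01) and 0.55 with FGF21 (0.56), over 31 cows. Without cow 912 the r fell to 0.51 with DDIT3, 0.50 with TRIB3, 0.42 with FGF21 and 0.35 with ASNS, and to -0.12 with CHAC1. Centred on group means in those 30 cows, r was 0.46 with DDIT3, 0.45 with TRIB3, 0.48 with FGF21 and 0.13 with ASNS. Over 31 cows, FGF21 was the gene whose relation with ATF4 changed least between r and rho. Without cow 912 this was not so, with r = 0.42 and rho = 0.51 for FGF21 and 0.50 and 0.50 for TRIB3. Without the 2 cows farthest from the median of ATF4, which were GLYLC 912 and CONLC 166, the r of FGF21 with ATF4 was 0.61.

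The relations of ATF5 moved the other way when cow 912 was left out. The r of ATF5 was 0.03 with ATF4, 0.05 with ASNS and 0.04 with TRIB3 over 31 cows, and 0.30, 0.31 and 0.25 without cow 912. With PPP1R15A it was -0.36, and -0.31 without that cow. SESN2 and VLDLR had r of at most 0.35 with every other gene of the 10. DDIT3 and PPP1R15A, which lie in the same feedback loop, had r = 0.57 (rho = 0.49) over 31 cows. Without cow 912 it was 0.40, and 0.58 after centring on group means. Over the 45 pairs the median r was 0.27 with all cows and 0.15 without cow 912, and the number of pairs with r of at least 0.5 went from 12 to 2.

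**Figure D5:**
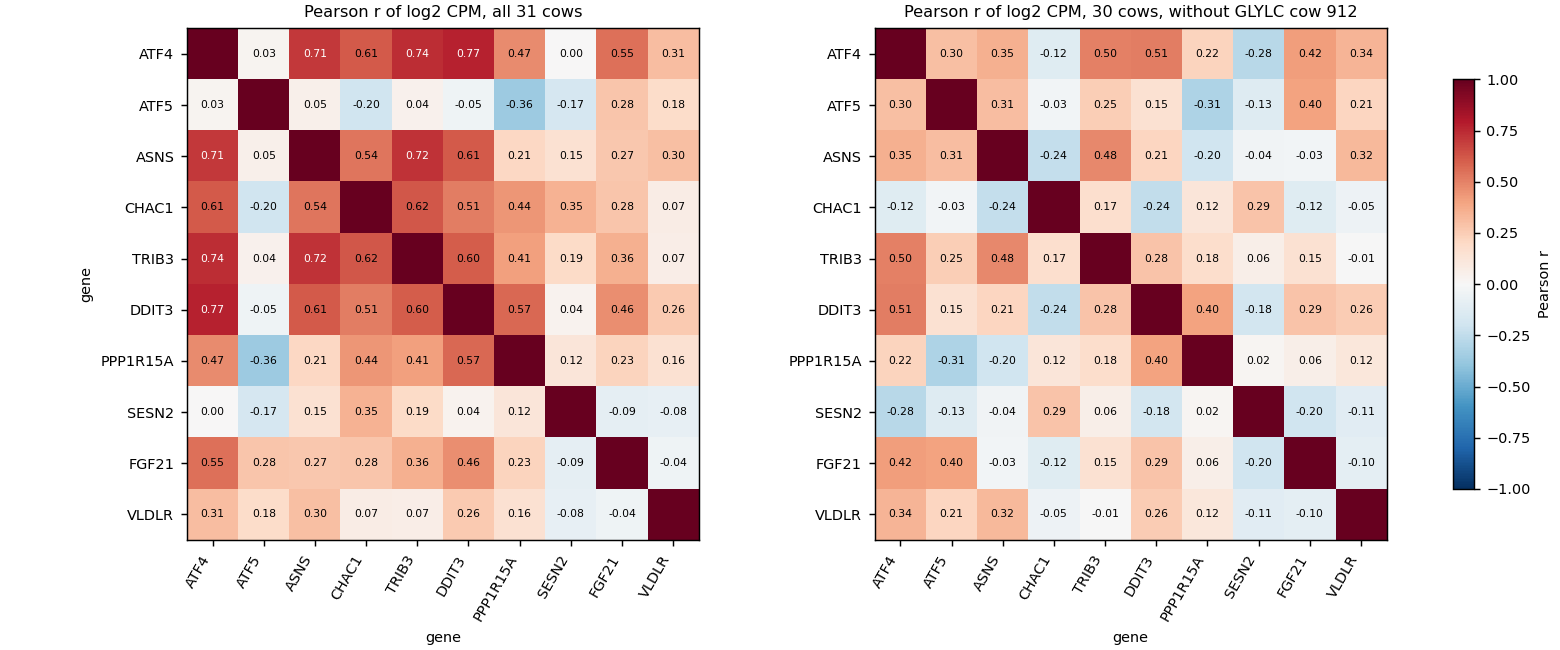
Pearson r of log2 CPM between each pair of the 10 genes (both axes), over 31 cows on the left and over 30 cows without GLYLC cow 912 on the right; colour gives r from -1 to 1. The block of ATF4, ASNS, CHAC1, TRIB3 and DDIT3, with r between 0.51 and 0.77 on the left, loosens on the right, where r of ATF4 and DDIT3 is 0.51 and r of ATF4 and CHAC1 is -0.12.

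The genes whose levels were most like those of each of the 10 were taken from 11835 genes with a mean of at least 1 CPM, by r over 31 cows. ATF4 was closest to HERPUD1 (r = 0.91, and 0.76 without cow 912), which serves ER-associated degradation, then to PREB and FARSA. Of 11826 genes outside the 10, 33 had a higher r with ATF4 than DDIT3 had, which put DDIT3 at rank 34. In the same ranking, TRIB3 was at 59, ASNS at 98, CHAC1 at 294 and FGF21 at 509. PPP1R15A was at 837, VLDLR at 2037, ATF5 at 5269 and SESN2 at 5618. These ranks hold cow 912, without which the r of ATF4 and DDIT3 fell from 0.77 to 0.51, and ranks without it are not given. ATF5 was closest to SELENOO (0.82, and 0.81 without cow 912), ENSBTAG00000004632, which has no symbol in the files, and ATAD3A (0.76 in both), and both named genes encode mitochondrial proteins. ASNS was closest to MARS (0.81, and 0.62 without the cow), CARS and HYOU1, and TRIB3 to PPRC1 (0.84 and 0.72), FARSA and MRTO4. DDIT3 was closest to BRD2 (0.80 and 0.59), TMEM39A and TFG, and PPP1R15A to the immediate early gene JUN (0.74 and 0.72), DDX21 and BTG3. Genes close to FGF21 were FUT1 (0.77 and 0.72) and SRP68 (0.74 and 0.68). SESN2 was closest to CCP110 (0.67 and 0.73), ZNF672 and STK4, and VLDLR to LRRC2 (0.79 and 0.79), SCHIP1 and SFRP2. The nearest genes of CHAC1 were TMPRSS15 (0.87, but 0.17 without cow 912), CLCA4 and BCO1, which are intestinal genes.

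Among other genes of the pathway, the calls with all cows were between HC and LC, apart from GPT2 in GLYLC versus CONLC. The share called over all genes between HC and LC was 1.45%. Without the 4 cows with the most muscle reads, 44 genes were called there, and list genes are not reported for that fit. The pathway lists were chosen with earlier results of these data known, so their calls and adjusted p-values are a description. Of 12 amino acid synthesis genes taken as ATF4 targets, PYCR1 and ALDH1L2 were lower in HC after adjustment for treatment and 0 were higher, and the median of the list was -0.08 against -0.01 over all genes. PYCR1, the mitochondrial enzyme that completes proline synthesis, had 1.002, 1.88 and 2.60 CPM in CONHC and 2.38, 7.72 and 14.6 CPM in CONLC. It had 1.06, 2.25 and 5.64 CPM in GLYHC and 1.90, 3.56 and 10.7 CPM in GLYLC. Its highest CONLC values were in cows 259, 260, 166 and 103, the same 4 cows that were highest for ASNS. PYCR1 fell by 1.54 ± 0.31 on the log2 scale in HC (edgeR, adjusted p = 0.0275), and by 1.42 ± 0.31 (adjusted p = 0.0397) without cow 912. The fold change of CONHC versus CONLC was called only without cow 912, at -2.15 ± 0.38 (adjusted p = 0.0550).

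ALDH1L2, a mitochondrial folate enzyme, is also among the genes that the study found responsive to CFP, so its call is no independent test. It fell by 0.54 ± 0.14 in HC (edgeR, adjusted p = 0.0683), and also without cow 912 (adjusted p = 0.0947). MARS, the methionyl-tRNA synthetase, was the only one of 13 genes of its list that was called, at -0.36 ± 0.10 (adjusted p = 0.0901) and -0.25 ± 0.06 without cow 912 (adjusted p = 0.0893). In that list 12 of 13 genes were lower in HC with a median of -0.14, and without cow 912 11 of 13 with a median of -0.08. Over 31 cows, ASNS had r = 0.60 with PYCR1 (rho = 0.41), 0.50 with ALDH1L2 (rho = 0.56) and 0.81 with MARS (rho = 0.53). Centred on group means without cow 912, these were 0.36, 0.53 and 0.42. Computed in the same way with PYCR1, ALDH1L2 and MARS, r was 0.30, -0.01 and 0.34 for ATF4. For ATF5 it was 0.43, 0.12 and -0.16.

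Further calls between HC and LC were lost without cow 912. HSPA5 (-0.90 ± 0.25, edgeR, adjusted p = 0.0918) and MANF (-0.93 ± 0.27, adjusted p = 0.0973) of 14 ER chaperones and EIF2B4 (-0.18 ± 0.05, adjusted p = 0.0918) of 17 genes of the eIF2 machinery were lower in HC. Without the cow HSPA5 was at -0.56 ± 0.18 (edgeR, adjusted p = 0.166) and MANF at -0.52 ± 0.18 (adjusted p = 0.2001). EIF2B4 was about as low as before, at -0.16 ± 0.05 (adjusted p = 0.139). The 9 bZIP factors, 8 amino acid transporters, 12 other ATF4 and CHOP targets, 9 mitochondrial chaperones and proteases and 13 FGF21 receptor and PPAR alpha genes held no call in this comparison. Medians there were 0.03, -0.31, -0.12, -0.04 and 0.20, and without cow 912 they were 0.03, -0.11, -0.12, -0.06 and 0.14.

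For GLYHC versus GLYLC, none of the 9 pathway lists held a call. Among the genes with the smallest p in their lists were EIF2B4 (-0.24 ± 0.07, edgeR, adjusted p = 0.167), HSPA5 (-1.14 ± 0.36, adjusted p = 0.199) and MANF (-1.18 ± 0.38, adjusted p = 0.210). GPT2 was at 0.54 ± 0.19, PYCR1 at -0.92 ± 0.40 and MARS at -0.40 ± 0.14. XBP1 was at -0.98 ± 0.36 and NUPR1 at 0.20 ± 0.09, SLC38A2 at -0.62 ± 0.25 and SLC6A9 at 0.50 ± 0.24, and TARS at -0.51 ± 0.19. ERO1A was at 0.26 ± 0.11, HERPUD1 at -0.42 ± 0.19, FGFR4 at 0.44 ± 0.15, EIF2B5 at -0.18 ± 0.07, YME1L1 at -0.17 ± 0.07 and HSPE1 at -0.19 ± 0.09. None of these passed the test. Without cow 912, several were nearer to zero, with XBP1 at -0.21, SLC38A2 at -0.15, TARS at -0.12, HERPUD1 at -0.05, HSPA5 at -0.43, MANF at -0.31, MARS at -0.16 and PYCR1 at -0.58. The others were at -0.20 for EIF2B4, 0.47 for GPT2, 0.19 for NUPR1, 0.50 for SLC6A9, 0.25 for ERO1A, 0.33 for FGFR4, -0.13 for EIF2B5, -0.17 for YME1L1 and -0.17 for HSPE1. For GLYLC versus CONLC, GPT2, an alanine transaminase, was called lower in GLYLC (-0.88 ± 0.19, edgeR, adjusted p = 0.0871) and was not called without cow 912 (-0.81 ± 0.19, adjusted p = 1).

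Some markers of other cells were called between HC and LC. With treatment as a covariate, only DCN of the 8 endothelial and stellate cell markers was called, lower in HC (-0.50 ± 0.10, edgeR, adjusted p = 0.0275). Of the 8 leukocyte and Kupffer cell markers, only CD68 was called, higher in HC (0.61 ± 0.17, edgeR, adjusted p = 0.0948). In this second list, 5 markers were higher and 3 lower in HC. Without cow 912, DCN was called (-0.51 ± 0.10, edgeR, adjusted p = 0.0344) and CD68 was not (0.55 ± 0.16, adjusted p = 0.137). DCN was also lower in GLYHC than in GLYLC (-0.65 ± 0.14, adjusted p = 0.0848), but was not called there without the cow (-0.69 ± 0.15, adjusted p = 0.244). The summed levels of these lists were 292 to 456 CPM in HC cows and 323 to 1004 CPM in LC cows for the first, and 567.7 to 1210 CPM and 547 to 1015 CPM for the second. FABP2, MUC13, OLFM4 and BCO1 of the intestinal list were called lower in HC and in GLYHC versus GLYLC, and all but MUC13 were called higher in GLYLC than in CONLC. Without cow 912, 1 of the 5 had enough reads to be tested, and it was not called. No hepatocyte, bile duct or erythroid marker was called, and the part of these cells in the values of the 10 genes was not tested.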

How the data were processed

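Per the labels and the study's methods, RNA of 31 liver biopsies was sequenced from stranded mRNA libraries. After trimming (Trim Galore), the authors used HISAT2 2.1.0 for alignment to UMD3.1 and HTSeq 0.8.0 for read counts of genes (versions from the submitters' processing notes). The strand setting is not given in the sources used here. The deposited raw counts of 24616 genes were used, and the deposited table of normalized counts was not.

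Of the genes, 15916 reached 20 reads summed over the cows and were fitted here with edgeR 4.0.16 in R 4.3.3 (TMM, quasi-likelihood F test, 4 group means over all 31 cows). Additive models held treatment and CFP. The SE was taken as |log2 fold change|/√F. A call needed p under 0.05 before and under 0.1 after Benjamini-Hochberg adjustment over all genes tested. Total reads of 11675775 to 36675542 per cow set the precision of low genes. Cows of 1 group were separate animals, and the chi-square per gene of the 105 pairs within groups was at least 24.5. The steps were tested on simulated counts.

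The genes and lists were chosen with earlier results of these data known. Named were the 10 genes, list genes called in a comparison of 2 groups or an additive model, the 2 of each pathway list with the smallest p in GLYHC versus GLYLC, and the 3 genes nearest to each of the 10 by r, of which a few are not reported here. Genes of the lists that stand in relation to cow 912, and the muscle list, were named after their values were seen. Alternatives were RLE size factors, 2 other filters (at least 1 read, and filterByExpr with a minimum of 10), DESeq2 1.42.0, fits of 2 groups and each cow left out. Symbols of all 10 genes are in the RefSeq table of another assembly, so no coordinates are given.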

Additional observations from a re-analysis of the deposited data

Results flagged for a closer look

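Within each feeding group of 7 or 8 cows, the gap between an extreme cow and the next was set against the range of the group by Dixon's criterion for the 10 genes. Of 40 gene and group combinations examined, 11 values stood out, of which 6 came from GLYLC cow 912. Chance alone flags about 1 in 20 groups where values are normally distributed and groups are independent. These combinations share cows, and CPM were not transformed, so the 11 values cannot be set against this rate.

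In GLYLC cow 912, ATF4 had 478 CPM (next cow 192), ASNS 51.0 CPM (next 9.19), CHAC1 7.49 CPM (next 0.266), TRIB3 22.6 CPM (next 10.2), DDIT3 23.0 CPM (next 11.7) and FGF21 67.3 CPM (next 13.4). The library of this cow also held intestinal epithelium genes, and their part in these values was not tested.

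ASNS in GLYHC cow 37 had 13.0 CPM (next 9.29). TRIB3 in GLYHC cow 117 had 13.1 CPM (next 9.47). FGF21 in CONHC cow 134 had 21.3 CPM (next 8.19). VLDLR had 2.93 CPM in CONHC cow 123 (next 1.26) and 2.55 CPM in GLYHC cow 127 (next 1.16), and both cows were among the 4 with the most reads of skeletal muscle genes.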

How the results depend on the processing

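No gene of the 10 was called in the fit reported, and a few alternatives made 1 call. For CONHC versus CONLC, DESeq2 on the 2 compared groups called 1 gene (ATF5, which was chosen by this comparison, so the call is no test), as did DESeq2 on all cows without cow 912 (ASNS), which was added after seeing the data. For HC versus LC, DESeq2 on all cows called 1 gene (ASNS). With each cow left out in turn, edgeR called 0 to 1 gene for GLYHC versus GLYLC, for GLYLC versus CONLC (CHAC1 in both, while cow 912 was kept) and for HC versus LC (ASNS, without CONLC cow 169). RLE size factors, either filter and edgeR on 2 groups gave no call, nor did leaving out the 4 cows with the most muscle reads. CHAC1 was not tested under filterByExpr.

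Signs changed in DESeq2 for CHAC1 in GLYHC versus GLYLC (0.19 on all cows, 0.0938 on the 2 groups) and in HC versus LC (0.39), and for ASNS in GLYHC versus GLYLC on the 2 groups (0.058). The log2 fold change of VLDLR, GLYHC versus GLYLC, which was -0.0014, became 0.000145 with the filter of at least 1 read. With 1 cow left out in turn, the log2 fold change for GLYHC versus GLYLC ranged from -0.0421 to 0.24 for ATF5, -0.86 to 0.0567 for ASNS, -2.89 to 0.10 for CHAC1, -0.21 to 0.0389 for PPP1R15A, -0.61 to 0.67 for FGF21 and -0.34 to 0.15 for VLDLR. For GLYLC versus CONLC it ranged from -0.15 to 0.27 for ATF4, -0.66 to 0.28 for ASNS, -0.18 to 0.23 for TRIB3, -0.0464 to 0.28 for DDIT3, -0.0748 to 0.18 for PPP1R15A, -0.0247 to 0.18 for SESN2 and -0.27 to 0.88 for FGF21. In all of those the lowest value was without cow 912. For GLYHC versus CONHC it ranged from -0.0547 to 0.15 for ASNS, -0.0199 to 0.17 for TRIB3 and -0.45 to 0.23 for VLDLR, for CONHC versus CONLC from -0.0267 to 0.24 for SESN2, and for HC versus LC from -1.59 to 0.35 for CHAC1 and -0.0293 to 0.11 for PPP1R15A.

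Over all genes, GLYHC versus GLYLC gave 32 calls and 66 with RLE, 11 with filterByExpr, 0 with edgeR on 2 groups, 143 and 87 with DESeq2 on all cows and on 2 groups, and 0 to 150 with 1 cow left out. HC versus LC gave 231 calls and 134 with at least 1 read, 434 with DESeq2, 44 without the 4 cows with the most muscle reads and 83 to 404 with 1 cow left out. GLYLC versus CONLC gave 10 calls and 0 with filterByExpr or edgeR on 2 groups, 4 and 2 with DESeq2 and 0 to 41 with 1 cow left out.

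The median r over the 45 pairs was 0.27, and 0.12 with Spearman's rho. Without cow 912, signs also turned for GLY versus CON in ATF4 (0.04 to -0.12), ASNS (0.10 to -0.28) and TRIB3 (0.12 to -0.03), and for the interaction in ATF4 (-0.26 to 0.06), ASNS (-0.10 to 0.71), TRIB3 (-0.03 to 0.29) and DDIT3 (-0.06 to 0.19). In the comparisons of 2 groups and HC versus LC, no other sign changed in these alternatives. The cause of changes was not tested. CHAC1, SESN2 and VLDLR had few reads, which limits their precision. No paired analysis was possible because the groups share no animal numbers.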
